A study of Mus musculus with 3 samples.

Results

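The genes described here are the Hippo pathway genes Lats1, Lats2 and Wwc1, the coactivator genes Yap1 and Wwtr1 (which encodes TAZ), the transcription factor genes Tead1, Tead2 and Tead3, and the secreted-factor genes Ccn1 and Ccn2 (formerly Cyr61 and Ctgf). They were taken as every probe set whose only gene symbol in the platform annotation is one of these 10 genes, which gave 10 of 18193 genes and 26 of the 45101 probe sets on the array. The values come from glomeruli, the filtration units of the kidney, of 3 male FVB/NJ mice, nondiabetic and killed at 8 weeks of age. Each mouse was read on its own Affymetrix whole-genome mouse array. FVB is the wild-type control strain for diabetic OVE26 mice in the series design. OVE26 mice were not analysed here, so there is 1 group, no contrast between conditions, and every test concerns the spread between the 3 mice. RNA came from about 1000 isolated glomeruli of each mouse, fed a standard chow, so a level reflects all cells of the isolate together. In such bulk RNA, fewer cells of a type and less RNA per cell cannot be told apart.

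The Hippo pathway is a kinase cascade that restrains the coactivators YAP and TAZ. When the LATS kinases phosphorylate them, YAP and TAZ are held in the cytoplasm or degraded. When they are not phosphorylated, they enter the nucleus and bind TEAD factors at target genes, of which Ccn1 and Ccn2 are the most widely used readouts. Much of this control acts on protein modification and location, which RNA levels do not report. In the glomerulus YAP is known for supporting podocyte survival, and CCN2 is known as a matrix-associated factor of the mesangium and podocytes that is studied in diabetic kidney disease.

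All 10 genes had at least 1 probe set above background in all 3 mice, and 20 of the 26 probe sets were above it on all 3 arrays. Background was set from 78 receptor probe sets of the olfactory and vomeronasal systems, as their 95th percentile on each array. It lay at 2.59, 2.92 and 2.86 on the log2 scale in mice 1, 2 and 3. With the 90th or the 99th percentile instead, 22 or 18 of the 26 probe sets were above it on all arrays. At the 99th percentile Tead3 no longer was. The labelled tissue carried its defining markers. The slit diaphragm gene Nphs1, a podocyte marker, was at 11.36, 11.30 and 10.90, and each of the 9 podocyte genes measured exceeded background. So did all 9 endothelial genes and 6 of 7 mesangial genes. The 3 isolates differed in tubule and leukocyte RNA. Summed over 12 proximal tubule genes, the linear signal was 1928, 3144 and 11248 in mice 1, 2 and 3. Over 11 distal nephron genes, from loop to collecting duct, it was 6898, 15911 and 10657, and over 11 leukocyte genes it was 1441, 804 and 440. Such sums mainly follow the brightest genes of a list. In the distal nephron list these were Umod (12.47, 13.56 and 13.06) and Slc12a1 (10.09, 11.68 and 10.85). In the proximal tubule list it was Kap (10.30, 10.81 and 12.62). Only 5 of the 11 distal nephron genes were above background on all arrays. All values are log2 GCRMA values unless stated, and probe sets bind their targets unequally, so the levels of different genes are not ranked.

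**Figure D1:**
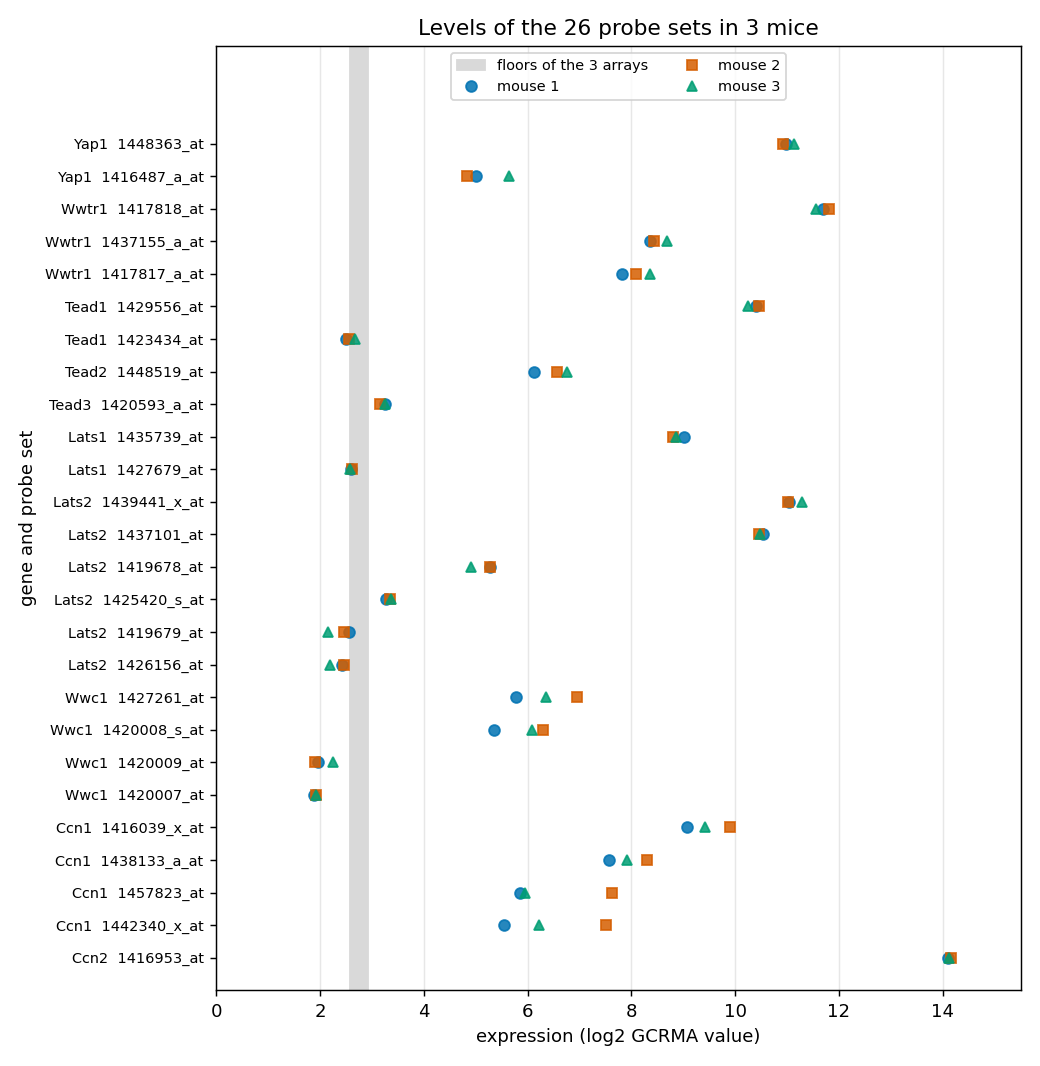
Log2 GCRMA value (x axis) of each of the 26 probe sets (rows, with gene name) in mouse 1 (circle), mouse 2 (square) and mouse 3 (triangle); the grey band spans the background floors of the 3 arrays, 2.59 to 2.92. The mice nearly coincide for Ccn2 and for the Lats2 probe set with a mean of 10.49 (range 0.07 for each). In all 4 rows of Ccn1 the square of mouse 2 stands to the right.

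The spread between mice was near that of the array as a whole. The median SD of the 20 probe sets was 0.19, against 0.17 over all 18427 probe sets above background, and 9 of the 20 lay below that median. The SD exceeded the one fitted for the level in 12 of the 20 (60.0%), against 47.1% of all. By limma's variance test with Benjamini-Hochberg adjustment, no probe set of these genes was called as more variable than typical of its level. The count was 0 of 20 at an adjusted p under 0.05, with a lowest adjusted p of 0.97. That test called 0 of the 18427 probe sets (0.0%), with a lowest adjusted p of 0.456. Even the heat shock gene Hspa1a, with a 60.4-fold range, was not called (adjusted p = 0.456, limma). With 3 mice the test can thus miss large differences, and 0 calls do not show that the mice were alike. At an unadjusted p under 0.05 it counted 785 of all probe sets (4.26%) and 3 of the 20, and all 3 belong to Ccn1. The highest and the lowest mouse were at least 2-fold apart for 1084 of all probe sets (5.88%) and for 3 of the 20, namely 2 probe sets of Ccn1 and 1 of Wwc1. Without mouse 2, no probe set of the 10 genes kept a 2-fold range and none had an unadjusted p under 0.05, while over all probe sets the counts became 577 and 449. Mouse 2 was the highest mouse in each member probe set counted, so leaving it out had to narrow their ranges. With 3 mice the 95% interval of an SD runs from 0.521 to 6.28 times its value if values are normally distributed, so SDs of single genes are compared only loosely. Nothing in the labels says whether the mice were handled together, so the spread may be technical in part.

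**Figure D2:**
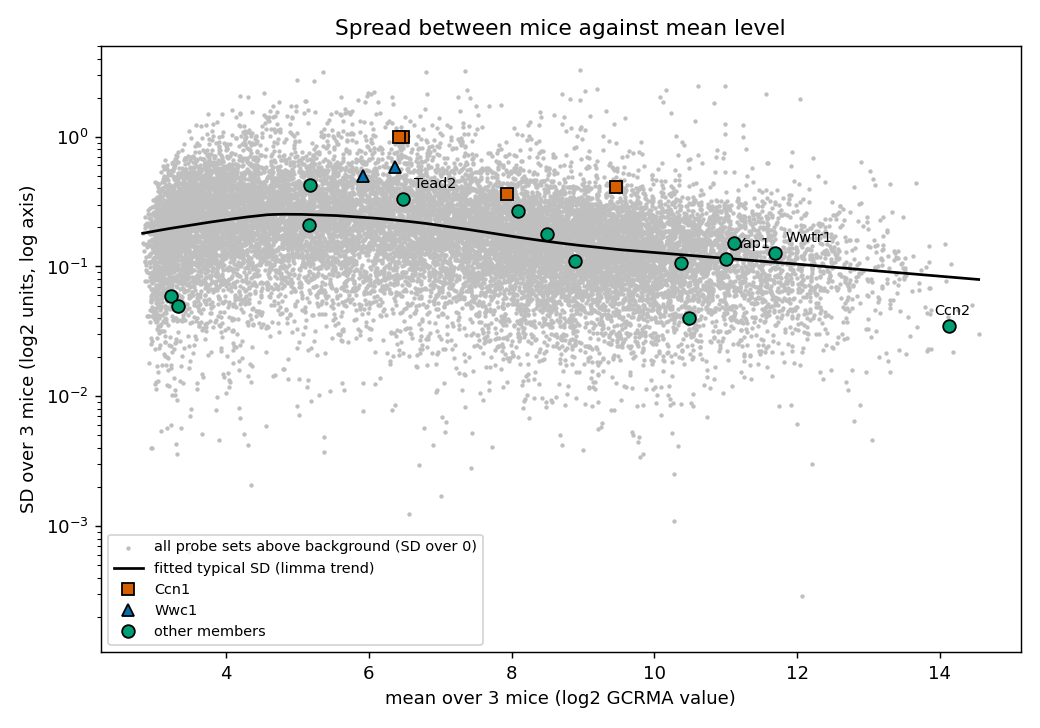
SD over the 3 mice (y axis, log2 units on a log axis) against the mean over the 3 mice (x axis, log2 GCRMA value) for all probe sets above background (grey), with the limma trend as a line and the 20 probe sets of the 10 genes as coloured symbols. The 4 Ccn1 squares lie at 2.09 to 4.43 times the line and the 2 Wwc1 triangles at 2.07 and 2.54 times, and Ccn2 lies at 0.417 times the line; 33 probe sets with an SD of 0 cannot be drawn on this axis.

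The LATS kinases phosphorylate YAP and TAZ. Their genes Lats1 and Lats2 had ranges of 1.16-fold and 1.21-fold on their brightest probe sets. The SDs were 0.747 and 1.33 times those fitted for the level. Lats1 was at 9.01, 8.80 and 8.87 in mice 1, 2 and 3, a mean of 8.89 ± 0.11 (SD, n = 3). Mouse 1 was highest, by 0.18 over the mean of the others. The other Lats1 probe set was at 2.60, 2.62 and 2.58 and was above background in mouse 1 only. The background floor was lowest on that array (2.59, against 2.92 and 2.86), so the call does not reflect a higher value in mouse 1.

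Lats2, which is both a kinase of the cascade and a reported YAP target, has 6 probe sets with 1 gene. The brightest was at 11.03, 11.01 and 11.29 (11.11 ± 0.15), with mouse 3 highest and mice 1 and 2 close together. A further one at 10.54, 10.46 and 10.47 (10.49 ± 0.04) had almost no spread. These 2 probe sets differ in which mouse was highest, mouse 3 for the first and mouse 1 for the second, and their ranges were 0.27 and 0.07. The dimmer ones lay at 5.28, 5.27 and 4.92 and at 3.27, 3.34 and 3.36. The remaining 2 were below background in all mice, and 1 of them was designed from the same transcript entry as the probe set near 5.

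Wwc1 encodes KIBRA, a scaffold protein that activates the LATS kinases, and it had the widest range of the 10 genes when each was read by its brightest probe set. Its brightest probe set was at 5.79, 6.95 and 6.35 in mice 1, 2 and 3 (6.36 ± 0.58), a 2.23-fold range. The next was at 5.36, 6.31 and 6.09 (5.92 ± 0.49), a 1.92-fold range. On both, mouse 1 was lowest and mouse 2 highest, and mouse 1 lay below the mean of the others, with differences of −0.86 and −0.84. The adjusted p was 0.97 for each (limma, n = 3). The other 2 probe sets, designed from the same transcript entry as the second, were below background in all mice at 1.91 to 2.25 and at 1.89 to 1.93. The same order of mice was seen in 4 of the 5 distal nephron genes above background on all arrays, namely Umod, Slc12a1, Kcnj1 and Cldn16. In the other, Calb1, mouse 2 was lowest (3.80, 3.64 and 5.55). Median differences over the 5 were −1.17 in mouse 1 and 1.21 in mouse 2. Slc12a3, above background on 2 arrays, had the same order. Aqp2, Aqp3 and Hsd11b2, above it on 1 or 2 arrays, had mouse 2 lowest. Of the 11 genes with a probe set in that list, Scnn1b and Fxyd4 were below background in all mice, and with no filter the median in mouse 2 was −0.01. The part of tubule RNA in the Wwc1 values was not tested.

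Yap1 and Wwtr1, the coactivators themselves, differed little between mice on their brightest probe sets. Yap1 was at 10.98, 10.92 and 11.14 in mice 1, 2 and 3 (11.01 ± 0.11), a 1.16-fold range. Its dimmer probe set, designed from the same transcript entry, was at 5.02, 4.84 and 5.65 (5.17 ± 0.42), a 1.75-fold range and an SD 1.69 times that fitted for its level. Mouse 3 was highest and mouse 2 lowest on both, by 0.19 and 0.72 over the mean of the others in mouse 3. Mouse 3 also had the highest proximal tubule values, with a median difference of 2.51 over 11 genes, and the highest interferon-responsive values, with 1.80 over 6 genes, and their part in the Yap1 values was not tested.

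Wwtr1 was at 11.70, 11.81 and 11.55 (11.69 ± 0.13) on its brightest probe set, where mouse 3 was lowest. On its other probe sets mouse 3 was highest, at 8.35, 8.44 and 8.69 (8.50 ± 0.18) and at 7.82, 8.09 and 8.35 (8.09 ± 0.27). The 3 probe sets of Wwtr1 thus gave opposite positions for mouse 3. The widest of the 3 ranges was 1.45-fold, and the lowest adjusted p of the 3 was 0.97 (limma, n = 3).

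Of the TEAD factors, which bind DNA and recruit YAP and TAZ, Tead1 was at 10.39, 10.47 and 10.26 (10.37 ± 0.11). The second Tead1 probe set was below background in all mice. Tead2 was at 6.12, 6.57 and 6.77 (6.48 ± 0.33), a 1.57-fold range with mouse 1 lowest. Tead3 was at 3.26, 3.15 and 3.26 (3.22 ± 0.06), only 0.23 to 0.67 above the background of the respective array. Mice 1 and 3 had the identical Tead3 value, a tie found for 3.36% of all probe sets above background. Tead4, the remaining member of the family, was above background in mouse 1 only, at 3.25, 2.83 and 2.57.

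Ccn2 encodes connective tissue growth factor, a secreted matricellular protein. Its single probe set was at 14.10, 14.16 and 14.12 in mice 1, 2 and 3 (14.13 ± 0.03). The range was 1.05-fold, and the SD was 0.417 times that fitted for probe sets of this level. The highest values on the arrays were 14.66 to 14.76, so Ccn2 lay 0.54 to 0.60 below the top of its array, where differences may be compressed. Whether this narrowed its spread was not tested.

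Ccn1 encodes a related matricellular protein and is also known as an immediate early gene. Its 4 probe sets gave the same highest and lowest mouse. The 2 dimmer ones held the largest SDs of the 20 probe sets, while the SDs of the 2 brighter ones lay below those of both Wwc1 probe sets. The brightest was at 9.08, 9.90 and 9.42 in mice 1, 2 and 3 (9.47 ± 0.41), a 1.77-fold range. The next was at 7.58, 8.30 and 7.92 (7.93 ± 0.36), a 1.65-fold range. Mouse 2 was highest and mouse 1 lowest on both, with mouse 3 between them.

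The other Ccn1 probe sets were at 5.85, 7.62 and 5.95 (6.47 ± 0.995) and at 5.55, 7.52 and 6.22 (6.43 ± 0.999). Both were designed from 1 transcript entry, so they are not independent readings. Their ranges were 3.42-fold and 3.91-fold, wider than those of the brighter probe sets. Over the 4 probe sets mouse 2 exceeded the mean of the others by 0.55 to 1.72 on the log2 scale, or 1.47-fold to 3.30-fold. The spread was 2.09 to 4.43 times that fitted for the level, and the adjusted p was 0.97 for each (limma, n = 3). Without mouse 2 the ranges were 0.34 and 0.34 for the brighter pair and 0.10 and 0.67 for the dimmer pair. Of 768 genes with at least 4 probe sets above background, 39 (5.08%) had the same highest and the same lowest mouse on all of them. Mouse 2 was highest and mouse 1 lowest throughout in 9 (1.17%). Ccn1 has 4, while some of these genes have more, for which full agreement is harder. The order counted was the one seen for Ccn1, so these shares do not measure how unusual it is. Of the 4 probe sets, 2 carry the _x_at suffix that Affymetrix gives to designs that may cross-hybridise.

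**Figure D3:**
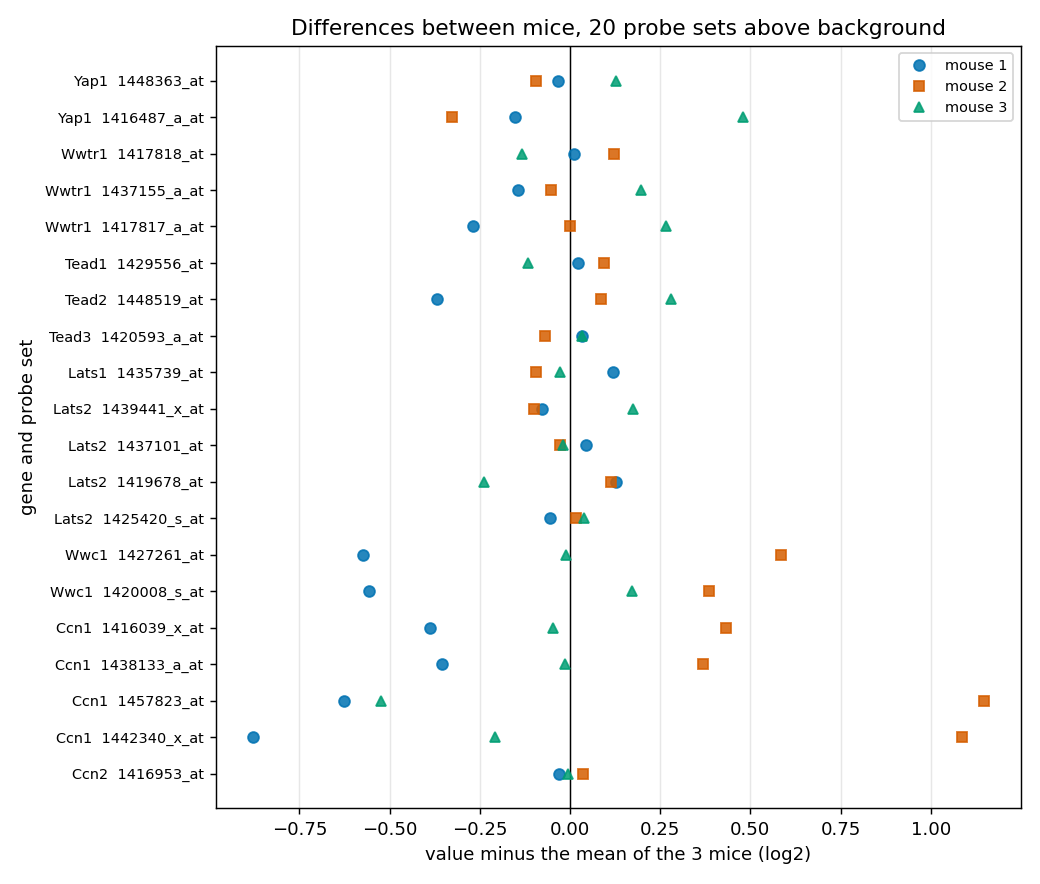
Value in each mouse minus the mean of the 3 mice (x axis, log2) for the 20 probe sets above background on all arrays (rows), with mouse 1 as circle, mouse 2 as square and mouse 3 as triangle. Mouse 1 is the lowest and mouse 2 the highest in every row of Wwc1 and Ccn1, and in 7 of the 20 rows in all (35.0%), against 15.3% of all probe sets above background. The 7 rows belong to Wwc1, Ccn1 and Ccn2 only, and rows of 1 gene are not independent readings.

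Several other measures shared either the low mouse or the high mouse of Ccn1, and most did not share both. The distal nephron genes did share both in 4 of the 5 above background, while Calb1 had mouse 2 lowest. Median differences over the 5 were −1.17 in mouse 1 and 1.21 in mouse 2. With no filter, the median in mouse 2 was −0.01. Immediate early genes were lowest in mouse 1 for 9 of the 12 above background, with a median difference of −0.45 there, 0.15 in mouse 2 and 0.35 in mouse 3. Mouse 2 was highest for 5 of the 12 and mouse 3 for 6. Fos was at 8.75, 10.10 and 10.09, Egr1 at 8.43, 9.54 and 9.21 and Atf3 at 3.09, 4.16 and 3.99. Of the 12, only these genes had mouse 2 highest and mouse 1 lowest, though mice 2 and 3 were alike for Fos. The 6 with mouse 3 highest were Jun, Junb, Ier2, Klf6, Zfp36 and Gadd45b (7.32, 8.14 and 8.72), all with mouse 1 lowest. Nr4a1 was at 8.04, 10.36 and 7.79, so mouse 2 alone was high and mouse 3 was lowest. Heat shock genes were lowest in mouse 1 for 7 of 9, with a median difference of −0.77, and highest in mouse 3 for 7 of 9 (0.43, against 0.34 in mouse 2). Smooth muscle genes, which include Acta2 at 10.54, 10.88 and 10.04, were highest in mouse 2 for 5 of 6, with a median difference of 0.26. They were lowest in mouse 3 for 5 of 6 (−0.26), and the median in mouse 1 was 0.00236. All 18 hybridisation controls, bacterial and phage transcripts added to every sample, were also highest on the array of mouse 2, by a median of 0.54. The 3′ minus 5′ difference of the Gapdh control, a sign of RNA quality, was 0.48, 1.08 and 0.92, lowest in mouse 1 and highest in mouse 2. That of actin was 1.49, 1.81 and 2.05, highest in mouse 3. The part of these in the Ccn1 values was not tested.

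**Figure D4:**
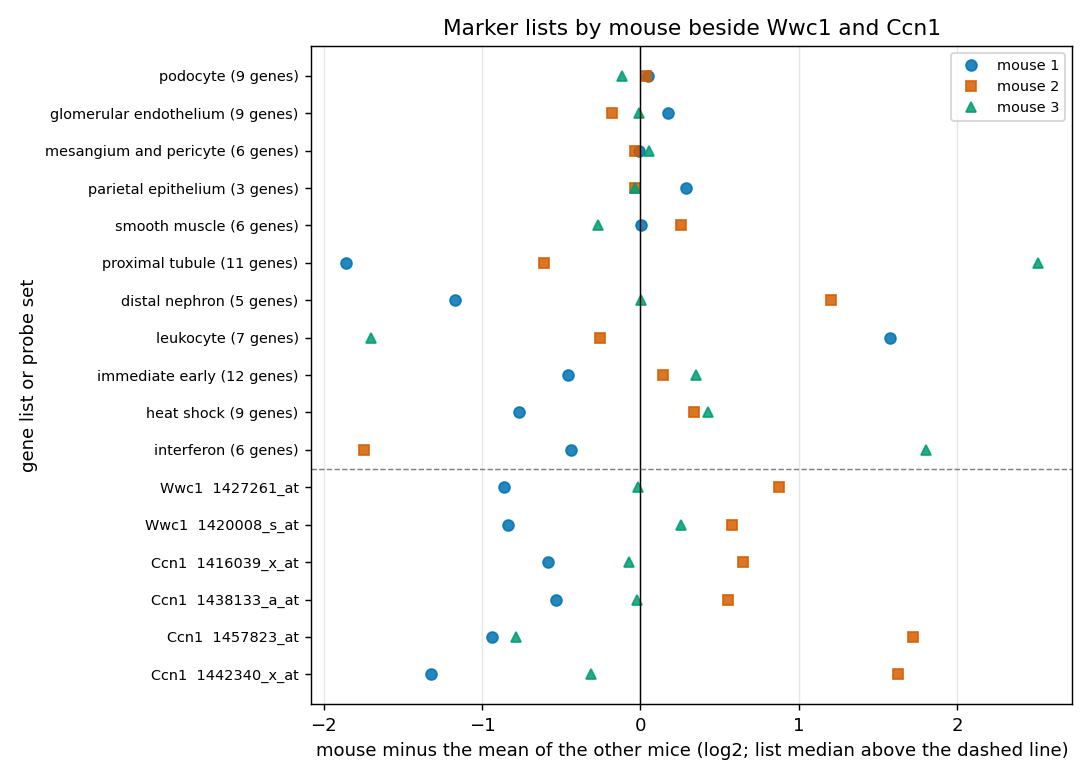
Difference (x axis, log2) of a mouse from the average of the remaining mice, shown as the median over the genes above background of each marker or response list (rows above the dashed line, number of genes in brackets) and for the probe sets of Wwc1 and Ccn1 (rows below it); circle, square and triangle are mice 1, 2 and 3. Mouse 2 is at the right for Wwc1, Ccn1 and the distal nephron list, where its median is 1.21, and mouse 3 is at the right for the proximal tubule list, at 2.51.

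Genes with the profile most like that of Wwc1 and Ccn1 were sought by the Euclidean distance between mean-centred values over the 3 mice, among genes with at least 0.5 times the SD of each. For Wwc1 the nearest of 2156 genes were the HSP40-family gene Dnajb4 (distance 0.0166), the homeobox gene Hoxb4 (0.0232) and the thick ascending limb gene Umod (0.0641). Umod was at 12.47, 13.56 and 13.06, and Dnajb4 at 9.92, 11.06 and 10.46. For the brightest probe set of Ccn1 the nearest of 3844 were Thsd4 (0.0195), the histone deacetylase gene Hdac7 (0.0205) and the sorting nexin gene Snx21 (0.0224). With 3 points per profile, close matches are common, and these names only describe the shape.

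The promoter of Ccn1 is shown because all probe sets of this gene had the same highest and lowest mouse and because TEAD factors are known to bind the letters GGAATG. The window runs from 250 bases before to 50 after the annotated start, on the minus strand at chr3:145649936-145650235 (RefSeq, GRCm38.p6). It is written 5′ to 3′ with the match in capitals, here on the opposite strand as CATTCC. The match begins 103 bases before the start.

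Ccn1: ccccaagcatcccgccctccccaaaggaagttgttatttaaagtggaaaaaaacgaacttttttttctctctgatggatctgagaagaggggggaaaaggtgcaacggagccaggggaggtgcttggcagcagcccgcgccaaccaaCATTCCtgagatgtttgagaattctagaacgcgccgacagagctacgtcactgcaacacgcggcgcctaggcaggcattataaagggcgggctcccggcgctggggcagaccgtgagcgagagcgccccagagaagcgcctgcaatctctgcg

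The promoter table held windows for 8 of the 10 genes, all but Ccn2 and Tead1, with 12 windows in all. GGAATG was searched on both strands, and 7 of the 12 windows of 5 genes held it, against 4817 of 32851 windows of the same length over all genes (14.7%). Windows of 1 gene can overlap, as the 2 of Wwtr1 do and hold 1 shared match. The AP-1 letters TGANTCA were in none of the 12 windows and in 7.81% of all, and the CArG box, bound by serum response factor, was in none and in 1.63% of all. A match describes letters only. Stretches around single matches are given for the other genes to compare their flanks, with the match in capitals (RefSeq, GRCm38.p6). They come from the windows at chr9:8004547-8004846 for Yap1, chr3:57575861-57576160 for Wwtr1, chr14:57746074-57746373 for Lats2 and chr17:28350756-28351055 for Tead3, all on the minus strand.

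Yap1: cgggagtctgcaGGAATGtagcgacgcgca

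Wwtr1: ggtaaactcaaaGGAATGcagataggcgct

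Lats2: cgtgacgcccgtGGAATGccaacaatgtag

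Tead3: gacgacgagcgaGGAATGgggtgcgcggga

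The match of Yap1 begins 141, that of Wwtr1 136 and the one shown for Tead3 182 bases before the start, and that of Lats2 begins 4 bases after it. A second Tead3 window, with its own annotated start, holds 3 matches, 2 before that start and 1 beginning 2 bases after it. Yap1, Wwtr1, Lats2 and Tead3 hold the match and had ranges of 1.07-fold to 1.21-fold on their brightest probe sets, against 1.77-fold for Ccn1, which also holds it. The genes with a window and no match were Wwc1, Tead2 and Lats1, with ranges of 2.23-fold, 1.57-fold and 1.16-fold. Tead3, with the narrowest range, lay close to background. Whether a match relates to the spread between mice was not tested.

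The wider pathway was examined in 53 genes, of which 52 had a probe set and 44 were above background in all mice. By limma's variance test 0 of the 44 passed an adjusted p of 0.05, 2 (F3 and Tgfb2) had an unadjusted p under 0.05, and 3 (Ccn4, F3 and Igfbp3) had a 2-fold range. Over all 10592 genes above background, each by its brightest probe set, 0 passed the adjusted threshold (0.0%), 509 had an unadjusted p under 0.05 (4.81%) and 629 a 2-fold range (5.94%), so the pathway genes were near the general share. Their median SD was 0.16, as it was over all genes. Among the regulators of the cascade (kinases, their cofactors, junctional and apical proteins), all 26 with a probe set were above background and none had a 2-fold range, with a median SD of 0.11. The least variable were Csnk1e, a casein kinase (9.08 ± 0.01, with identical values in mice 1 and 3), the atypical cadherin gene Fat4 (8.39 ± 0.02) and the LIM-domain gene Wtip (9.76 ± 0.03). The kinase Stk4 (MST1), which activates the LATS kinases, was at 10.96, 11.01 and 11.10, and its cofactor Sav1 at 10.08, 9.95 and 10.23. The most variable were the LATS-related kinase Stk38l (7.08, 6.55 and 6.50), Taok3 (9.08, 8.90 and 9.44) and Taok2 (4.37, 4.69 and 4.91). Amotl1, an angiomotin that binds YAP, was at 12.22, 12.19 and 12.27.

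Of the TEAD cofactor genes, Vgll4, which competes with YAP for TEAD, was at 9.08, 9.17 and 8.77 (9.01 ± 0.21). Vgll3 was at 5.83, 6.49 and 6.70 (6.34 ± 0.45), with mouse 1 lowest as for Tead2. Vgll1 and Vgll2 were below background in all mice. Of the other CCN genes, Ccn3, Ccn5 and Ccn6 were below background in all mice. Ccn4 was at 4.05, 3.32 and 2.96 (3.44 ± 0.56), a 2.14-fold range with mouse 1 highest, opposite to Ccn1, and close to background in mouse 3. Leukocyte genes were also highest in mouse 1 (median difference 1.57, and 1.02 with no filter on dim genes), and their part in the Ccn4 value was not tested.

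Of 19 reported YAP and TEAD target genes besides Ccn1, Ccn2 and Lats2, 17 were above background in all mice, 2 had an unadjusted p under 0.05 and 0 passed the adjusted threshold (limma). Their median SD was 0.18. The largest SDs were those of Igfbp3, an insulin-like growth factor binding protein gene (6.84, 7.04 and 5.87), F3, which encodes tissue factor (8.69, 7.85 and 8.90), and the growth factor gene Tgfb2 (8.42, 9.06 and 8.06). The smallest were those of Arhgef17 (9.49 ± 0.05), Asap1 (8.76 ± 0.07) and Rbms3 (11.44 ± 0.12). The targets did not share an order of mice. Mouse 2 was highest in 5 of 17 and lowest in 4, mouse 1 was highest in 7 and lowest in 5, and mouse 3 was highest in 5 and lowest in 8. The order seen for Ccn1, mouse 2 highest and mouse 1 lowest, was that of 2 of the 17 (11.8%, against 15.3% of all probe sets above background), Amotl2 and the growth arrest gene Gadd45a (10.92, 11.52 and 11.04). Ankrd1, often measured with Ccn1 and Ccn2, was at 6.09, 6.27 and 6.37 (6.24 ± 0.14). Amotl2 and Ptpn14 are in both the regulator and the target list.

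**Figure D5:**
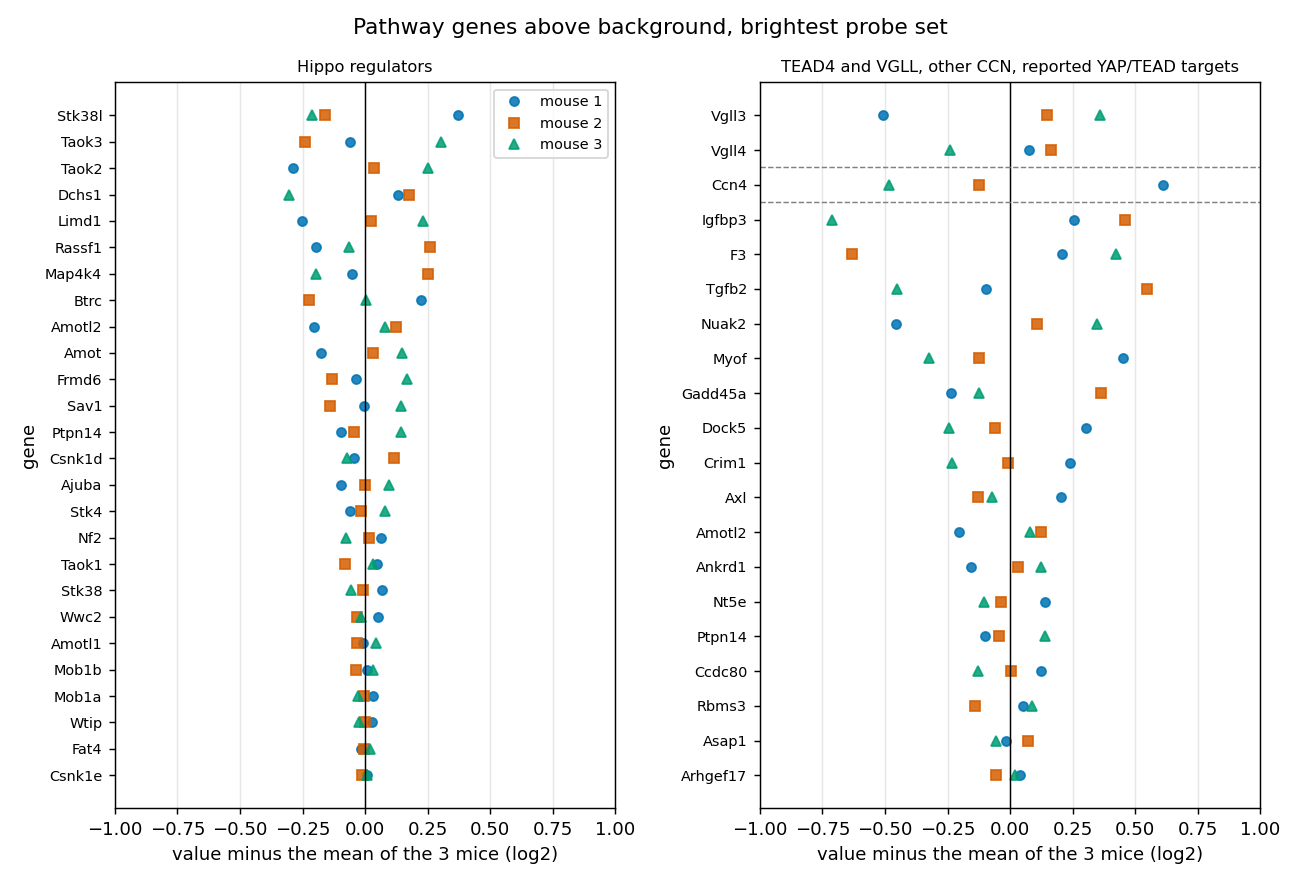
Value in each mouse minus the mean of the 3 mice (x axis, log2) for pathway genes above background on all arrays, by their brightest probe set and sorted by SD within each list; circle, square and triangle are mice 1, 2 and 3. Regulators of the cascade (left) stay within a 2-fold range in every row, while Igfbp3, F3 and Ccn4 (right) exceed it and differ in which mouse is highest.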

How the data were processed

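Glomerular RNA of 3 mice was hybridised to 1 array each. The deposited values were taken as log2 expression per probe set. Per the submitters' processing notes they were made with GCRMA, which corrects background by probe sequence and normalises arrays; its version and the arrays normalised together are not given in the sources used here. That they are log2 values follows from their range, not from the labels. Of 45101 probe sets, 34945 had 1 gene symbol, 932 several, 9160 none and 64 were controls. Of the probe sets with 1 symbol, 34754 matched the reference gene table (GRCm38.p6) and 0 symbols changed. There were 0 unused value columns. Probe sets above background on all 3 arrays (18427) were tested with limma 3.58.1 in R 4.3.3: each variance over the mice was compared, in the upper tail, with a scaled F distribution estimated from all of them (trend on level, robust fit), with Benjamini-Hochberg adjustment, threshold 0.05. The test was tested on simulated data. The brightest probe set stood for a gene in lists. Named genes are all members, the 3 most and least variable genes of each pathway list and nearest profiles. Only some of the first markers of the lists are named (Nphs1, Acta2, Umod, Slc12a1, Fos and Hspa1a). Others were chosen after their values were seen (Stk4, Sav1, Amotl1, Ankrd1, Nr4a1, Egr1, Atf3, Gadd45a, Amotl2, Ptpn14, Scnn1b, Fxyd4). So were Kap, Kcnj1, Cldn16, Calb1, Slc12a3, Aqp2, Aqp3, Hsd11b2, Jun, Junb, Ier2, Klf6, Zfp36 and Gadd45b. The genes and lists were chosen with earlier results of these data known. Some genes of the lists were not analysed here. Alternatives covered background, filter, fit, normalisation and leaving out each mouse. The number of arrays limits the precision.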

Additional observations from a re-analysis of the deposited data

How the results depend on the processing

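The variance test (limma) called 0 probe sets in all, among the 10 genes and among pathway genes under each alternative run. The alternatives were floors at the 90th and 99th percentiles, no filter, 1 probe set per gene, no robust fit and no trend. Quantile normalisation, centring and leaving out each mouse were the others. As the main fit did not call even a 60.4-fold range, 0 calls under these alternatives do not show that the mice were alike. All 119 tests of single genes under these, and with a gene's probe sets averaged, stayed above the threshold, with adjusted p from 0.843 (Ccn1, averaged) to 1; Tead3 was not tested with the floor at the 99th percentile. With a refit on only each gene's brightest probe set among those above background, 630 probe sets had a 2-fold range and 490 an unadjusted p under 0.05, as fewer are tested, and 1 of the 10 genes each did so. Leaving out 1 mouse gave 528 to 577 with a 2-fold range and 449 to 506 at the unadjusted threshold; for the 10 genes both counts were 0 without mouse 2, and without another mouse 2 to 3 had a 2-fold range and 2 to 4 passed the unadjusted threshold. Counts at the unadjusted threshold under alternatives were added after the data were seen. Of 33 marker medians, 1 moved by more than its list's SD with no filter, that of the distal nephron list in mouse 2. No paired analysis was possible because there is 1 group.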

Other observations

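A further probe set is annotated to both Xpo4 and Lats2 and was left out of the 26. It was at 4.64, 4.70 and 4.80 in mice 1, 2 and 3.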
